A study of Mus musculus with 24 samples.

Results

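The genes described here belong to the ATF4 branch and to the endoplasmic reticulum (ER) branches of the stress response, and were measured in 2 mouse cell lines treated with CpG DNA, with carbon nanotubes, or with both. The members were chosen by symbol from a list, and they are 40 of the 21669 genes of the read count table. They form an amino acid and ATF4 arm of 22 genes and an ER arm of 18 genes.

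K-Luc is a luciferase-expressing line derived from the KR158B mouse glioma. RAW-Blue is the mouse macrophage line RAW 264.7 carrying a secreted alkaline phosphatase reporter for NF-κB and AP-1. In each line the controls received only water (40 µL in 2 mL of medium), and every treated group received each named component at 10 µg/mL. The CpG group received the free oligonucleotide CpG-28. The SWNT/LP group received single-walled carbon nanotubes dispersed in a lipid-polyethylene glycol carrier. The CpG+SWNT/LP group received that dispersion together with free CpG-28, and the SWNT/CpG group received nanotubes dispersed directly in CpG-28. Cells adhered for 24 h in a migration assay and were then treated for 17 to 19 h (K-Luc) or 47 to 50 h (RAW-Blue), so the line and the treatment time cannot be told apart. K-Luc had 2 untreated libraries and 3 libraries in each of the other groups (14 in all), and RAW-Blue had 2 in each group (10 in all). The groups hold no oligonucleotide without CpG, so a response to CpG-28 cannot be assigned to its CpG motifs. The labels do not say that replicates came from separate cultures, so p-values measure only the spread between these libraries, which may be technical. In bulk libraries, fewer cells of a type and less RNA per cell cannot be told apart.

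The ATF4 branch starts when a stress-activated kinase phosphorylates the translation factor eIF2α, through PERK for unfolded protein in the ER and through GCN2 for amino acid shortage. General translation falls while translation of Atf4 mRNA rises, and ATF4 then switches on genes of amino acid synthesis, amino acid transport and tRNA charging, together with its own feedback inhibitors. The ER branches run through ATF6 and through IRE1 (Ern1), which splices Xbp1 mRNA, and they raise chaperones, disulfide isomerases and the ER degradation machinery. In macrophages, signalling through some Toll-like receptors, the family that includes the CpG DNA receptor TLR9, is known to draw on IRE1 and XBP1. Gene-level counts measure neither translation of Atf4 nor splicing of Xbp1.

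Short promoter elements linked to each arm were searched on the GRCm38.p6 build, from 250 bases before to 50 bases after each gene's RefSeq start. This is not the mm9 build the reads were counted on. Of the 40 members, 35 had a promoter sequence, and both strands were searched. Those without one were Cth, Slc7a5, Wars, Atf6 and Manf. The C/EBP-ATF response element, the composite site that ATF4 binds, was searched as TGATGNAAN. It was found in 7 of 19 promoters of the amino acid and ATF4 arm (36.8%; Trib3, Asns, Chac1, Nupr1, Aars, Gars and Vldlr), in 1 of 16 of the ER arm (6.25%; Herpud1) and in 4.5% of all 27025 promoters. Matches that lie wholly before the start are shown for Asns, Chac1, Nupr1, Aars and Gars, with the element in capitals. That of Trib3, which lies after the start, and that of Vldlr are not shown. Asns was read at chr6:7693210-7693252 (minus strand), Chac1 at chr2:119351028-119351076 (plus strand), Nupr1 at chr7:126625553-126625601 (minus strand), Aars at chr8:111033709-111033757 (plus strand) and Gars at chr6:55037950-55037998 (plus strand), each 5′ to 3′ along the gene. In all but Asns the element lies on the opposite strand and so reads backwards.
Asns: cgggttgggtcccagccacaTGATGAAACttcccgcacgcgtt
Chac1: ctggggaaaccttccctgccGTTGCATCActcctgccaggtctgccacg
Nupr1: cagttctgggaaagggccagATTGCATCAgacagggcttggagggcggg
Aars: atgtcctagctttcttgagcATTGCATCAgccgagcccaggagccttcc
Gars: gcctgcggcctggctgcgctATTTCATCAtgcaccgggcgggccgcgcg

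The ER stress response element, which ATF6 binds together with NF-Y, was searched as CCAAT and CCACG separated by any 9 bases. It was found in 8 of 16 promoters of the ER arm (50%; Hspa5, Hsp90b1, Dnajc3, Pdia6, Calr, Canx, Syvn1 and Creld2), in 0 of 19 of the amino acid and ATF4 arm and in 0.137% of all promoters. Its shorter relative ERSE-II, searched as ATTGG and CCACG separated by any 1 base, was found in 12 of all promoters and, among the members, in that of Herpud1 alone. Herpud1 was therefore the member whose window held an element of each kind, and both of its stretches are shown beside 4 of the ER stress response elements. The windows are Herpud1 at chr8:94386296-94386344 for the ATF4-type element and at chr8:94386357-94386407 for ERSE-II (plus strand), Hspa5 at chr2:34772005-34772063 (plus strand), Calr at chr8:84847055-84847113 (minus strand), Pdia6 at chr12:17266471-17266529 (plus strand) and Syvn1 at chr19:6046512-6046570 (plus strand). The element of Calr and the ATF4-type element of Herpud1 lie on the opposite strand and read backwards.
Herpud1, ATF4-type: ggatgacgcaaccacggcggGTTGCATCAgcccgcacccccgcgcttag
Herpud1, ERSE-II: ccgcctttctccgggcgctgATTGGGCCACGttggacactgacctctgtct
Hspa5: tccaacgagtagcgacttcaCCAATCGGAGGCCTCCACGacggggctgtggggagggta
Calr: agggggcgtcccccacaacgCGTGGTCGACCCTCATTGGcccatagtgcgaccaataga
Pdia6: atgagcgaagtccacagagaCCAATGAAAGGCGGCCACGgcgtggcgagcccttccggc
Syvn1: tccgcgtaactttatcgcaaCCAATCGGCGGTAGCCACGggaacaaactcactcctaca

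A match is a description of the letters, and binding was not measured. The XBP1-type element, searched as TGACGTGG, was in 0 of the 35 member promoters and in 0.714% of all promoters.

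Depth was 13.3 to 24.1 M counted reads in K-Luc and 17.2 to 20.3 M in RAW-Blue (M, 1e6 reads). The 9 macrophage markers summed to 5 to 7.3 RPKM (reads per kilobase and per 1e6 reads) in K-Luc and to 1429 to 1758 RPKM in RAW-Blue, while the glial marker Gfap was listed at 0 to 0.1 RPKM in K-Luc and Sox2 at 24.1 to 38.9 RPKM. The 2 RAW-Blue untreated libraries stood apart from each other more than any other RAW-Blue pair (chi-square per gene of 43.3, against 1.95 to 5.78), and 19 of 21 measured members of the amino acid and ATF4 arm were higher in untreated 1 than in untreated 2, with a median log2 ratio of 0.30. Counts of called members are therefore given with and without each of them for every RAW-Blue treatment against untreated cells. The same holds for the SWNT/CpG difference between the lines. Other results that rest on these libraries come from the full fit unless stated. In K-Luc, 3 libraries came from sequencing run 1 and the rest from run 2, and the run was a term of the model. Replicate 1 of each K-Luc group differed more from replicates 2 and 3 (chi-square per gene of 7.92 to 14.5) than those did from each other (2.63 to 3.44). Of the 40 members, 11 (Atf5, Ddit3, Psph, Shmt2, Aars, Wars, Ppp1r15a, Hspa5, Pdia4, Pdia6 and Syvn1) overlap another gene in RefSeq, and since the strand setting of the counting is not given in the sources used here, their counts may include reads of the neighbour.

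Untreated cells of the 2 lines held the arms at different levels. On the authors' RPKM scale, which corrects for gene length, the ER arm held the highest values in both lines. The calcium-binding chaperone calreticulin (Calr) led with 483.1 ± 6.79 RPKM in K-Luc and 591.6 ± 104 RPKM in RAW-Blue (SD, n = 2 each). In K-Luc the ER form of HSP90 (Hsp90b1, 439.2 ± 8.13 RPKM) and BiP (Hspa5, 251.2 RPKM), the chief ER chaperone, followed, whereas in RAW-Blue Hspa5 (447.4 ± 14.8 RPKM) and Hsp90b1 (445.6 ± 99.7 RPKM) did not differ beyond their spread. Atf4 was the eighth highest member in RAW-Blue (113.6 ± 16.5 RPKM) and the sixth highest in K-Luc (154.2 ± 3.11 RPKM), next to the serine synthesis enzyme Psat1 in each line (130.8 and 166.6 RPKM).

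**Figure D1:**
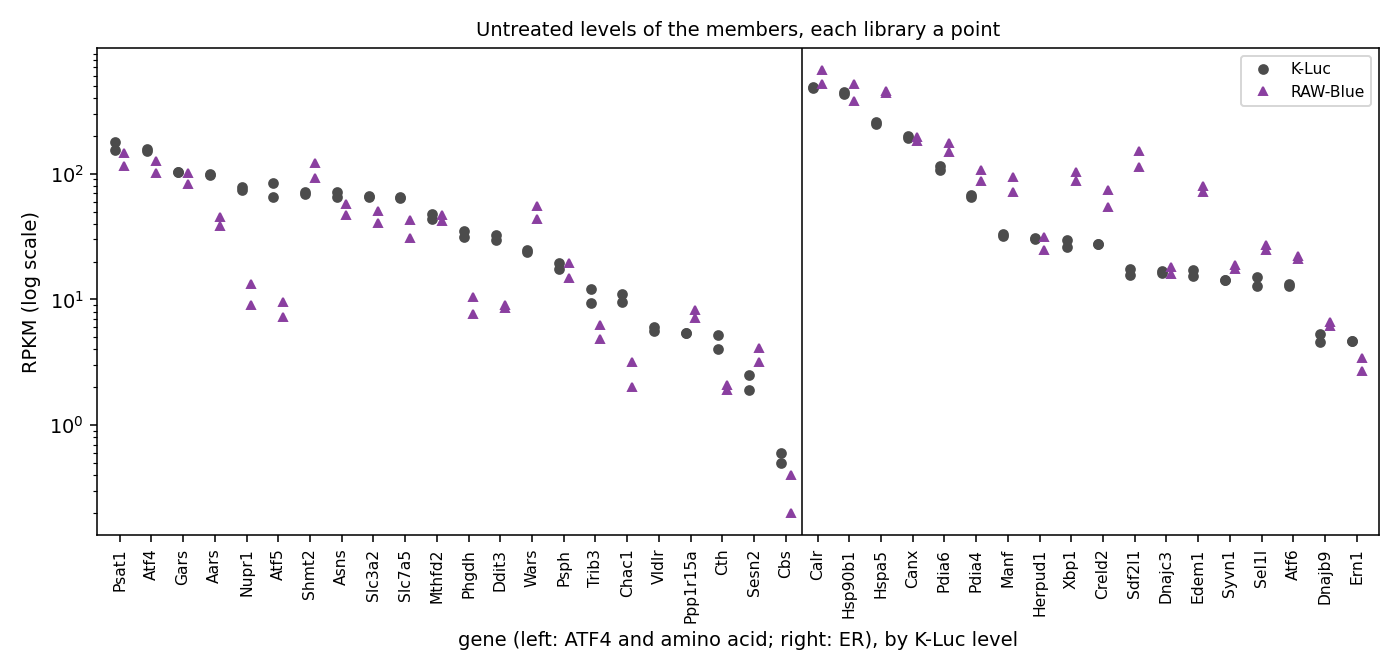
Level of each member in untreated cells (authors' RPKM, log axis), with 1 point per library and line, members in the order of their arm. Vldlr is listed at 0 in RAW-Blue and is not drawn there; Sdf2l1, Edem1 and Xbp1 lie higher in RAW-Blue, and Atf5 and Nupr1 higher in K-Luc.

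Between the untreated lines, 4 members of the amino acid and ATF4 arm were higher and 15 lower in RAW-Blue (of 22), and 14 members of the ER arm were higher and 1 lower (of 18; edgeR quasi-likelihood test, Benjamini-Hochberg adjusted p under 0.05). Since 77.9% of all 13350 genes tested differed between the lines (37% higher and 40.9% lower in RAW-Blue), these counts are no more than a description. In the ER arm, Sdf2l1, a cofactor of the BiP chaperone cycle, was at 16.55 ± 1.2 RPKM in K-Luc and 132.0 ± 27.6 RPKM in RAW-Blue, a log2 difference of 3.08 ± 0.12 (SE; adjusted p = 7.31e-17). Edem1, which directs misfolded glycoproteins to degradation, differed by 2.37 and the transcription factor Xbp1 by 1.91 on the log2 scale, both higher in RAW-Blue. The sensor Ern1 was the ER member that was lower there, by -0.53. On the ATF4 side, the transcription factor Atf5 (74.3 ± 13.6 against 8.35 ± 1.63 RPKM) and the stress-induced chromatin protein Nupr1 (75.65 ± 3.04 against 11.2 ± 2.97 RPKM) were the members furthest below their K-Luc level, apart from Vldlr. This lipoprotein receptor was at 5.8 ± 0.283 RPKM in untreated K-Luc, while all 10 RAW-Blue libraries together held 2 reads of it, and it was not tested within RAW-Blue. The eIF2α phosphatase subunit Ppp1r15a, the mTORC1 inhibitor Sesn2, the mitochondrial serine enzyme Shmt2 and the tryptophanyl-tRNA synthetase Wars were the 4 higher in RAW-Blue.

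**Figure D2:**
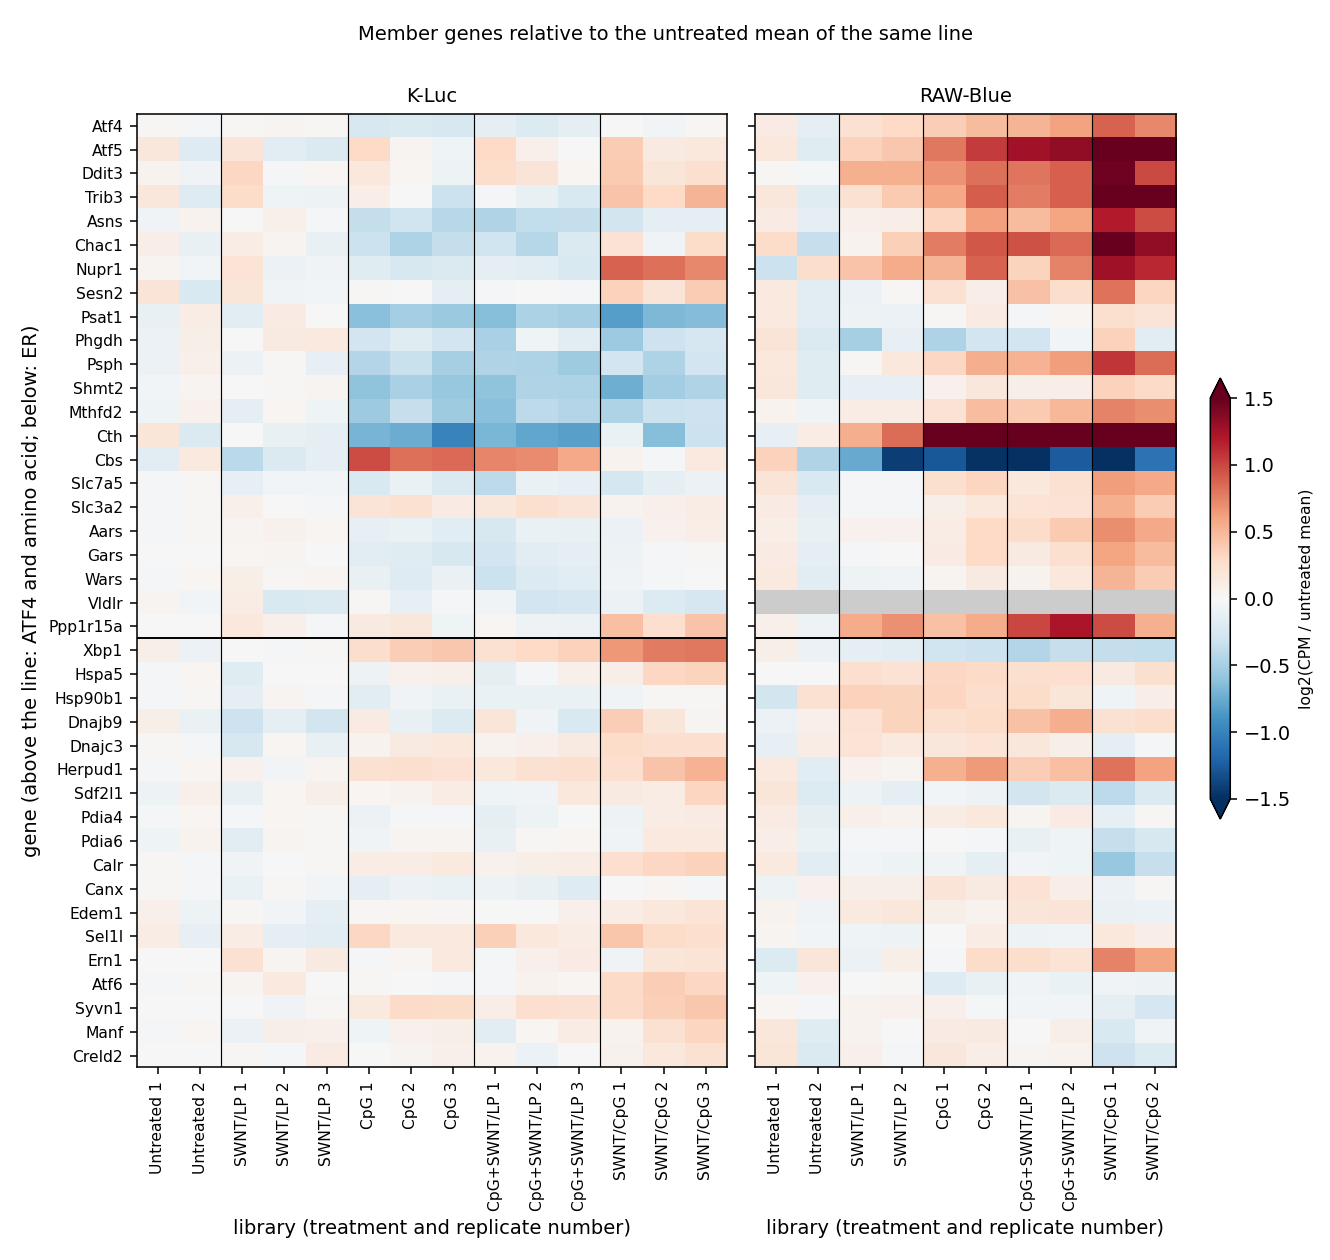
Log2 ratio of each member's CPM in every library to the untreated mean of the same line (colours end at -1.5 and 1.5, and grey marks Vldlr in RAW-Blue, with too few reads), with members down the side by arm and libraries across by line and treatment. In RAW-Blue the SWNT/CpG columns are high over most of the amino acid and ATF4 arm, and in K-Luc they are high over most of the ER arm.

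In RAW-Blue, SWNT/CpG raised most of the amino acid and ATF4 arm while the ER chaperones did not follow. Against untreated cells, 18 of the 21 measured members of the amino acid and ATF4 arm rose and 1 fell, whereas 2 of 18 members of the ER arm rose and 3 fell. Over all 11514 genes tested, 23.2% were called, 12.8% higher and 10.4% lower, so the ER count lies near that background and the other arm well above it. The median log2 fold change was 0.72 in the amino acid and ATF4 arm, -0.0753 in the ER arm and 0.00233 over all genes. Without untreated 1 the counts were 19 higher and 0 lower in the amino acid and ATF4 arm and 4 higher and 5 lower in the ER arm, with 31.8% of all genes called. Without untreated 2 they were 17 and 1, and 5 and 9, with 51% of all genes called. Without SWNT/CpG 1 they were 13 and 0, and 1 and 0, with 10.4% of all genes called.

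Cth, the cystathionine gamma-lyase that makes cysteine from cystathionine, moved the most. In CPM (counts per 1e6 reads, scaled within the line), it stood at 5.31 and 6.21 in the untreated RAW-Blue libraries, 8.37 and 10.3 with SWNT/LP, 19.1 and 30.9 with CpG, 26.5 and 34.2 with CpG+SWNT/LP, and 86.2 and 64.9 with SWNT/CpG. Both SWNT/CpG libraries lay above the other 8, and every treated library lay above both untreated ones. The log2 fold change of SWNT/CpG over untreated was 3.71 ± 0.27 (SE), a 13.1-fold rise (adjusted p = 4.21e-05), and it was 3.60 without untreated 1 and 3.83 without untreated 2. The other enzyme of that pathway, cystathionine beta-synthase (Cbs), was counted 24 and 15 times in untreated RAW-Blue libraries and 4 and 10 times with SWNT/CpG. It was the 1 member of the arm called lower (adjusted p = 0.0498), and DESeq2 did not call it.

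Among the transcription factors, Atf4 itself was at 345 and 290.1 CPM in untreated RAW-Blue cells, 371 and 392 with SWNT/LP, 411 and 439.8 with CpG, 452 and 482 with CpG+SWNT/LP and 587 and 525 with SWNT/CpG. The groups did not overlap in that order, and the rise with SWNT/CpG was 0.81 ± 0.10 on the log2 scale (adjusted p = 0.000321). Atf5, a relative of Atf4 that is also translated under eIF2α phosphorylation, went from 30.2 and 23.8 CPM untreated to 92.4 and 78.0 CPM with SWNT/CpG, a log2 fold change of 1.66 ± 0.13 (adjusted p = 3.43e-05). Ddit3, which encodes the death-linked factor CHOP, was at 12.5 and 12.2 CPM untreated and at 33.9 and 24.4 CPM with SWNT/CpG (1.24 ± 0.15). The lower SWNT/CpG library of Ddit3 was close to the higher CpG+SWNT/LP library, at 23.0 CPM. Nupr1 rose by 1.20 ± 0.20, from 9.07 and 13.7 CPM to 27.6 and 24.9 CPM.

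The feedback genes of the arm rose as well. Trib3, a pseudokinase that inhibits ATF4 and CHOP, was at 20.6 and 16.2 CPM in untreated cells, 21.5 and 24.1 with SWNT/LP, 27.4 and 34.5 with CpG, 31.3 and 34.2 with CpG+SWNT/LP and 75.8 and 55.2 with SWNT/CpG. Its SWNT/CpG libraries lay clear of all others, and the log2 fold change over untreated was 1.83 ± 0.18 (adjusted p = 0.000156). Chac1, which degrades glutathione, rose by 1.73 ± 0.26, from 8.10 and 5.26 CPM to 27.3 and 16.8 CPM. Ppp1r15a, the phosphatase subunit that reverses eIF2α phosphorylation, rose by 0.77 with SWNT/CpG (71.6 and 52.7 CPM) but stood higher with CpG+SWNT/LP (72.6 and 85.3 CPM, against 38.2 and 34.5 untreated).

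Genes of amino acid supply rose too. Asparagine synthetase (Asns), whose promoter carries the element shown above, was at 176 and 148 CPM untreated, 170.4 and 174 with SWNT/LP, 202 and 247 with CpG, 226 and 245 with CpG+SWNT/LP and 371 and 319 with SWNT/CpG. The rise with SWNT/CpG was 1.09 ± 0.12 (adjusted p = 0.000214), and the SWNT/LP libraries lay inside the untreated range. In the serine and folate route, Psph rose by 0.96, Mthfd2 by 0.72 and Shmt2 by 0.32, while Psat1 (0.22, adjusted p = 0.13) and Phgdh (0.11, adjusted p = 0.72) were not called. The subunits of the large neutral amino acid transporter, Slc7a5 and Slc3a2, rose by 0.60 and 0.46. The tRNA synthetases for alanine, glycine and tryptophan, Aars, Gars and Wars, rose by 0.64, 0.53 and 0.44.

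Library by library, both SWNT/CpG libraries exceeded all 8 other RAW-Blue libraries for 17 of the 20 members of the amino acid and ATF4 arm with a mean of at least 1 CPM (the others were Sesn2, Phgdh and Ppp1r15a), against 11.0% of all genes at that level. In the ER arm this held for 1 of 18, Ern1. Both SWNT/CpG libraries lay below all others for 4 of 18 ER members (Pdia6, Calr, Edem1 and Syvn1; 7.70% of all genes) and for 0 of the 20. Members with the ATF4-type element in their promoter rose in 6 of 6 cases (median 1.14) and those without it in 9 of 12 (median 0.65), a description over few genes. Cth, Slc7a5 and Wars, which also rose, had no promoter sequence to search and are in neither group.

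**Figure D3:**
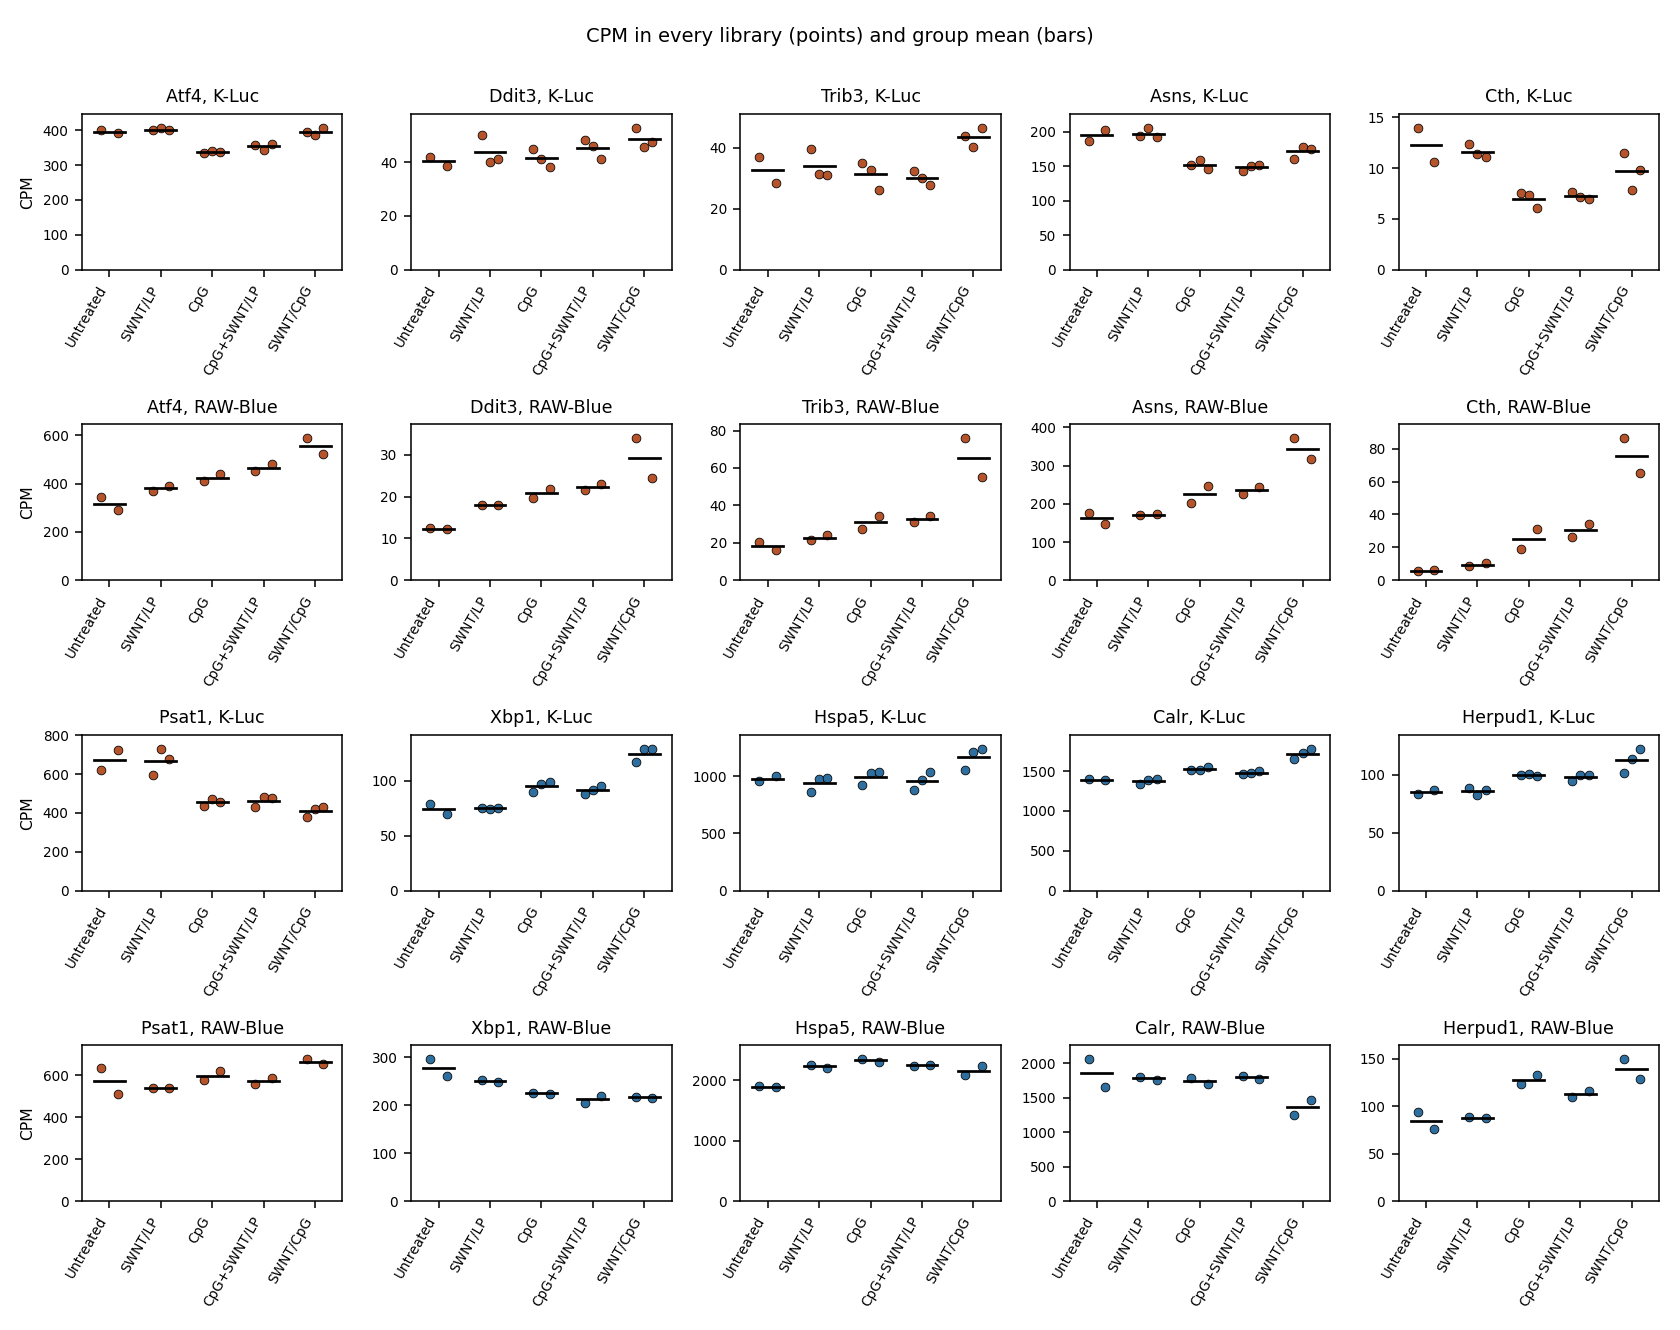
CPM of 10 members in each library, by treatment and line, with points for libraries, bars for group means and axes from 0. In RAW-Blue, Trib3, Asns and Cth reach their highest values in the 2 SWNT/CpG libraries, and in K-Luc, Xbp1 does so in the 3 SWNT/CpG libraries.

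The ER members called in RAW-Blue, a share near that of all genes, are given singly. Herpud1, a component of the ER degradation complex whose window held elements of both arms, was at 93.7 and 76.2 CPM untreated, 89.0 and 87.5 with SWNT/LP, 123 and 133 with CpG, 109.6 and 117 with CpG+SWNT/LP and 149.6 and 129 with SWNT/CpG. It rose by 0.71 ± 0.11 with SWNT/CpG (adjusted p = 0.00134), and the SWNT/CpG and CpG groups overlapped. Ern1, the IRE1 sensor itself, rose by 0.67 ± 0.14 (19.6 and 25.5 to 37.7 and 34.1 CPM). The remaining calls were falls.

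Xbp1, whose mRNA IRE1 splices, fell from 296 and 262 CPM to 218 and 216 CPM (-0.36 ± 0.08, adjusted p = 0.00752), with 252 and 248 CPM under SWNT/LP, 226 and 224 under CpG and 205 and 219.7 under CpG+SWNT/LP. Every treated library lay below both untreated ones. Calr fell by -0.45 ± 0.11, from 2055 and 1655 CPM to 1254 and 1465 CPM, and the disulfide isomerase Pdia6 by -0.29 ± 0.08, from 805 and 699 CPM to 593 and 635 CPM. BiP (Hspa5) was at 1907 and 1883 CPM untreated and at 2081 and 2237 CPM with SWNT/CpG, a difference of 0.19 ± 0.07 that missed the threshold (adjusted p = 0.0645). It passed when either untreated library was left out (0.20 without untreated 1, 0.18 without untreated 2). Leaving out each library of the compared groups in turn kept the calls of Atf4, Atf5, Ddit3, Trib3, Asns, Chac1, Cth and Herpud1. Xbp1, Calr, Pdia6 and Ern1 each missed the threshold in at least 1 such fit. Their log2 fold changes over these fits were -0.45 to -0.268, -0.598 to -0.281, -0.393 to -0.186 and 0.492 to 0.867.

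Free CpG also raised members of the amino acid and ATF4 arm in RAW-Blue. Against untreated cells, 7 of 21 members of the amino acid and ATF4 arm rose and 0 fell (median 0.35), and 2 of 18 ER members rose and 1 fell (median 0.13), with 10.8% of all genes called (5.18% higher and 5.6% lower). Cth rose by 2.11 ± 0.28 (adjusted p = 0.00231), Atf5 by 0.93 ± 0.13, Ddit3 by 0.76 ± 0.15, Trib3 by 0.75 ± 0.18, Asns by 0.47 ± 0.12, Atf4 by 0.42 ± 0.10 and Mthfd2 by 0.35. Of the ER genes, Herpud1 rose by 0.59 ± 0.11 and Hspa5 by 0.30 ± 0.07, and Xbp1 fell by -0.31 ± 0.08. Of these calls, leaving aside Mthfd2, that of Atf5 alone was kept in every fit that left out 1 library. The counts were 15 and 0 in the amino acid and ATF4 arm and 5 and 2 in the ER arm without untreated 1, with 19.8% of all genes called, and 6 and 1 and 7 and 3 without untreated 2, with 44.5% called. The counts were 5 and 0 and 1 and 0 without CpG 1 (3.88% of all genes called), and 2 and 0 and 0 and 0 without CpG 2 (3.05%).

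With CpG+SWNT/LP, 11 of 21 members of the amino acid and ATF4 arm rose and 1 fell (median 0.45), and 3 of 18 ER members rose and 1 fell (median 0.069), with 20.3% of all genes called (10.1% higher and 10.1% lower). Cth rose by 2.39, Atf5 by 1.30, Ppp1r15a by 1.12, Chac1 by 0.90, Ddit3 by 0.85, Trib3 by 0.84, Atf4 by 0.56 and Asns by 0.54. The ER co-chaperone Dnajb9 rose by 0.49, Herpud1 by 0.41 and Hspa5 by 0.24, and Xbp1 fell by -0.39. Leaving out 1 library in turn kept the calls of Atf4, Atf5, Ddit3, Cth and Ppp1r15a, whereas Asns, Chac1, Xbp1, Hspa5, Dnajb9 and Herpud1 each lost theirs in at least 1 fit. The counts were 17 and 0 in the amino acid and ATF4 arm and 7 and 1 in the ER arm without untreated 1 (31% of all genes called), and 10 and 1 and 7 and 4 without untreated 2 (47.1%). They were 7 and 0 and 1 and 0 without CpG+SWNT/LP 1 (8.26%), and 5 and 0 and 0 and 1 without CpG+SWNT/LP 2 (8.74%). The CpG, CpG+SWNT/LP and SWNT/CpG comparisons share the same untreated libraries.

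SWNT/LP alone gave 0 calls among the members in RAW-Blue with edgeR, where 7 members of the amino acid and ATF4 arm and 4 of the ER arm had an unadjusted p under 0.05, DESeq2 called 1 member, and 0.478% of all genes were called (0.434% higher and 0.0434% lower). Atf4 differed from untreated by 0.27 ± 0.10 (adjusted p = 0.32) and Ddit3, at 17.9 CPM in both SWNT/LP libraries, by 0.54 ± 0.15 (adjusted p = 0.20). These values turn on the untreated pair. Without untreated 1, 2 members of each arm were called higher and 0 lower, with 3.01% of all genes called. Without untreated 2, the amino acid and ATF4 arm had 2 higher and 5 lower and the ER arm 4 higher and 3 lower, but 36.1% of all genes were called in that fit, so these counts are at the background.

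Nanotubes dispersed in CpG-28 were set directly against nanotubes in lipid given with free CpG-28, a contrast that does not include the untreated group. The spread behind its p-values was still estimated from all 10 RAW-Blue libraries, the untreated pair among them. In RAW-Blue, 20 of 21 members of the amino acid and ATF4 arm were above 0 (median 0.33) and 2 were called higher, Cth (1.31, adjusted p = 0.0445) and Trib3 (1.00, adjusted p = 0.0441), with 0.825% of all genes called (0.469% higher and 0.356% lower). Both calls were lost in each of the 4 fits without 1 library (adjusted p up to 0.50 for Cth and 0.49 for Trib3). Among ER members 0 of 18 were called with edgeR (10 at an unadjusted p under 0.05, 2 lower with DESeq2), 13 were below 0 and the median was -0.17. An edgeR fit of only the compared groups called 15 members of the amino acid and ATF4 arm higher and 0 lower. Asns (0.54, adjusted p = 0.00237) and Atf4 (0.25, adjusted p = 0.0485) were among them. That fit called 2 ER members higher and 3 lower, and 832 of all 11309 genes. Set against free CpG, a comparison added after values were seen, SWNT/CpG had 3 members of the amino acid and ATF4 arm higher (Cth by 1.60, Trib3 by 1.08 and Atf5 by 0.73) and 0 of the ER arm (9 at an unadjusted p under 0.05, 0 with DESeq2), with 0.842% of all genes called (0.669% higher and 0.174% lower). None of those 3 calls was kept in every fit without 1 library. Against free CpG, an edgeR fit of only the compared groups called 13 members of the amino acid and ATF4 arm higher and 0 lower. In the ER arm it called 1 member higher and 9 lower, and it called 923 of all 11250 genes. DESeq2 called 9 members of the amino acid and ATF4 arm higher, and 251 of all 11514 genes.

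**Figure D4:**
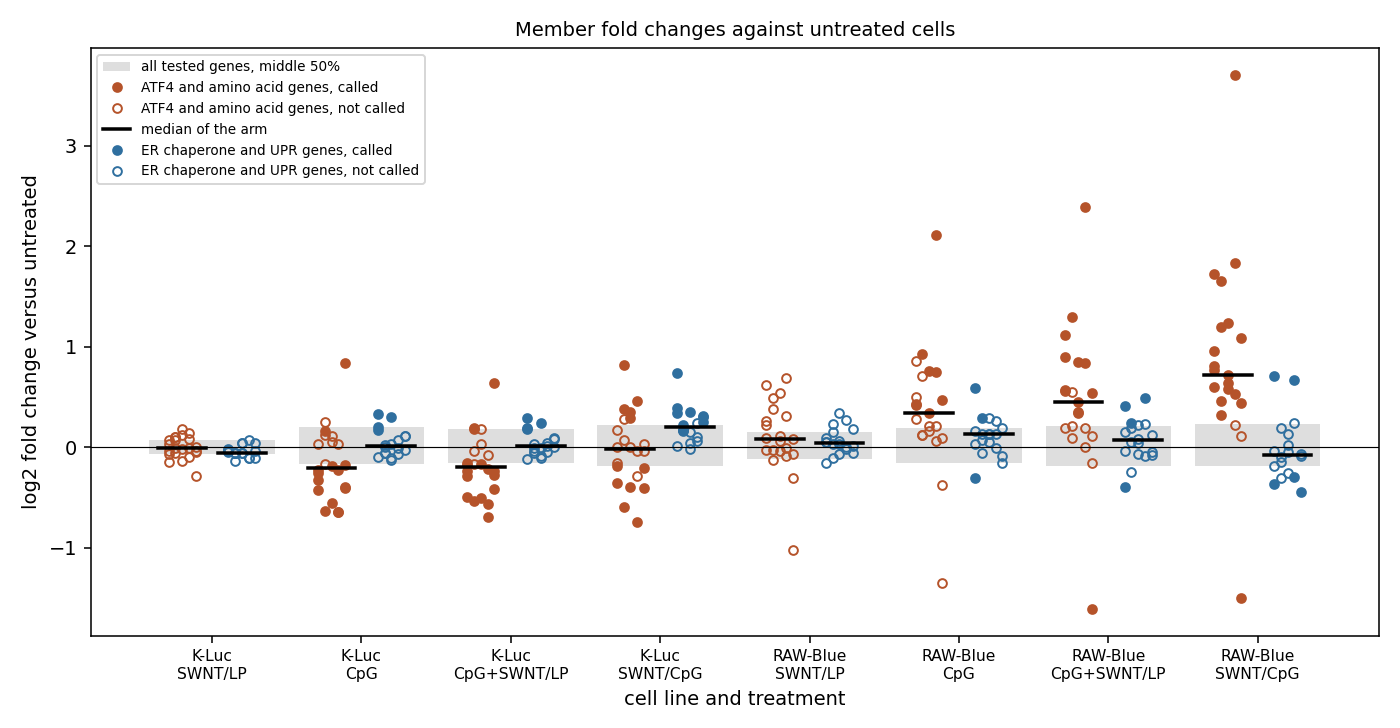
Log2 fold change of each member against untreated cells for each treatment and line, with filled points for calls at an adjusted p under 0.05, black bars for arm medians and grey bands for the middle 50% of all genes tested. The RAW-Blue SWNT/CpG column places the amino acid and ATF4 median at 0.72, and the K-Luc SWNT/CpG column places the ER median at 0.20.

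In K-Luc, the calls with SWNT/CpG were all rises in the ER arm and went both ways in the amino acid and ATF4 arm. Against untreated cells, 10 of 18 ER members rose and 0 fell (median 0.20), while 5 of 22 members of the amino acid and ATF4 arm rose and 7 fell (median -0.019). Across all 12420 genes, 43.1% were called (21.8% higher and 21.3% lower), and the all-gene median was 0.00968, so the number called in the amino acid and ATF4 arm lies near the background. All 3 SWNT/CpG libraries lay above the 11 other K-Luc libraries for 8 of 18 ER members (Xbp1, Hspa5, Dnajc3, Herpud1, Calr, Edem1, Atf6 and Syvn1), against 7.54% of all genes. The same held for 3 of 22 members of the amino acid and ATF4 arm (Trib3, Nupr1 and Ppp1r15a). With the libraries of run 2 alone, the counts were 10 and 0 in the ER arm and 4 and 6 in the other (29% of all genes called), and without untreated 2 they were 6 and 0, and 2 and 6 (22%).

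Xbp1 led the ER arm. Its K-Luc libraries stood at 79.2 and 70.2 CPM untreated, 75.1, 73.9 and 75.5 with SWNT/LP, 89.7, 96.7 and 98.9 with CpG, 87.8, 91.7 and 95.3 with CpG+SWNT/LP and 117, 129 and 129 with SWNT/CpG. The SWNT/LP libraries lay within the untreated range, the groups given free CpG lay above it, and SWNT/CpG lay above all of them. The log2 fold change with SWNT/CpG was 0.74 ± 0.06 (adjusted p = 1.95e-07). Herpud1 rose by 0.39 ± 0.05, from 83.2 and 86.3 CPM to 101, 114 and 122 CPM. Sel1l and Syvn1, the adaptor and the ubiquitin ligase of the ER degradation complex, rose by 0.36 ± 0.07 and 0.34 ± 0.05.

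The other ER members that were called, some of them chaperones, rose by 0.16 to 0.31. Calr rose by 0.30, from 1406 and 1382 CPM to 1654, 1729 and 1778 CPM, and the sensor Atf6 by 0.31. Hspa5 rose by 0.22 ± 0.06 (adjusted p = 0.00986), from 957 and 997 CPM to 1049, 1212 and 1236 CPM, and this call was lost without untreated 2 (adjusted p = 0.25). The co-chaperone Dnajc3 rose by 0.26, the secreted factor Manf by 0.18 and Edem1 by 0.16. The 8 ER members not called were Hsp90b1, Dnajb9, Sdf2l1, Pdia4, Pdia6, Canx, Ern1 and Creld2. Of the whole arm, 17 of 18 members were above 0, and Hsp90b1 had its highest group mean in untreated cells. Members with the ER stress response element rose in 4 of 8 cases (median 0.19) and those without it in 4 of 8 (median 0.20). Atf6 and Manf, which also rose, had no promoter sequence to search and are in neither group.

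In the amino acid and ATF4 arm of K-Luc, 5 members rose. Nupr1 rose by 0.82 ± 0.07 (adjusted p = 2.43e-07), from 72.3 and 68.4 CPM to 130.0, 125 and 116 CPM, with 59.7 to 81.3 CPM in all other treated libraries. Trib3 (0.46 ± 0.13), Ppp1r15a (0.39 ± 0.09), Sesn2 (0.36) and Ddit3 (0.29 ± 0.09) also rose, although the calls of Trib3 and Ddit3 were each lost in a fit without 1 library (adjusted p up to 0.28 and 0.115). Atf4 was not called, at 401 and 391 CPM untreated and 394, 386 and 405 CPM with SWNT/CpG (adjusted p = 0.99).

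The 7 members that fell were Psat1, Shmt2, Phgdh, Mthfd2 and Psph of the serine and folate route, Asns and Slc7a5. Psat1 was at 619 and 723 CPM untreated, 595, 729.7 and 676 with SWNT/LP, 436, 473 and 455 with CpG, 431, 482 and 476 with CpG+SWNT/LP and 379, 419.9 and 429 with SWNT/CpG. Every library given CpG in any form lay below every library without it, and the log2 fold change with SWNT/CpG was -0.74 ± 0.06 (adjusted p = 1.94e-07). Shmt2 fell by -0.59 ± 0.05, from 231 and 243 CPM to 143, 164 and 173 CPM, and likewise showed no overlap between libraries with and without CpG. Phgdh fell by -0.41, Mthfd2 by -0.39, Psph by -0.35, Asns by -0.20 and Slc7a5 by -0.19. Cth was at 13.9 and 10.6 CPM untreated and 11.4, 7.85 and 9.78 CPM with SWNT/CpG (-0.29, adjusted p = 0.066).

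Free CpG lowered more of this arm in K-Luc than it raised. With CpG, 2 of 22 members rose and 13 fell (median -0.21), 4 of 18 ER members rose and 0 fell (median 0.0149), and 36.2% of all genes were called (17.9% higher and 18.4% lower). Psat1 fell by -0.65 ± 0.07 (adjusted p = 7.24e-06), Cth by -0.65 ± 0.13, Shmt2 by -0.63 ± 0.05, Mthfd2 by -0.55 ± 0.06, Asns by -0.41 ± 0.05 and Atf4 by -0.23 ± 0.04 (334, 339.6 and 337 CPM with CpG). The risers of the arm were Cbs (0.84 ± 0.18), at 1.72 and 2.12 CPM untreated and 3.79, 3.40 and 3.45 with CpG, and the transporter subunit Slc3a2 (0.16 ± 0.05). In the other arm Xbp1 rose by 0.33 ± 0.07, Sel1l by 0.31 ± 0.08, Syvn1 by 0.20 ± 0.06 and Herpud1 by 0.17 ± 0.06, whereas Hspa5 was not called (-0.059 ± 0.068, adjusted p = 0.54). All 4 ER calls and that of Slc3a2 were lost without untreated 2, where Xbp1 was 0.15 above untreated (adjusted p = 0.253) and the counts were 1 higher and 10 lower in the amino acid and ATF4 arm, with 12.2% of all genes called.

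CpG+SWNT/LP gave counts of 2 higher and 13 lower of 22 in the amino acid and ATF4 arm (median -0.20) and of 4 higher and 0 lower of 18 in the ER arm (median 0.0107), with 33.9% of all genes called (16.1% higher and 17.8% lower). Cth fell by -0.69, Psat1 by -0.56, Shmt2 by -0.53, Mthfd2 by -0.51, Asns by -0.41 and Atf4 by -0.16, and Cbs rose by 0.64, Xbp1 by 0.29, Sel1l by 0.25, Herpud1 by 0.19, Slc3a2 by 0.19 and Syvn1 by 0.18. In run 2 alone, which left 1 untreated library, the medians were -0.168 in the amino acid and ATF4 arm and 0.0265 in the ER arm. Without untreated 2 they were -0.25 and -0.0126, with Xbp1 at 0.13. The calls of all 6 risers and of Atf4 were each lost in at least 1 fit without a library. SWNT/LP alone gave 0 calls in either arm with edgeR and with DESeq2 (2 members of the amino acid and ATF4 arm and 0 of the ER arm at an unadjusted p under 0.05), with 0.129% of all genes called (0.0886% higher and 0.0403% lower) and medians of -0.0105 and -0.0518.

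Set against CpG+SWNT/LP, SWNT/CpG stood higher in both K-Luc arms. In the amino acid and ATF4 arm 11 of 22 members were higher and 2 lower (median 0.15), and 10 of 18 ER members were higher and 0 lower (median 0.17), with 17.7% of all genes called (8.54% higher and 9.12% lower). Nupr1 was higher by 0.99 ± 0.06 (adjusted p = 3.8e-08), Trib3 by 0.54, Chac1 by 0.46, Ppp1r15a by 0.42, Asns by 0.21 and Atf4 by 0.16. Xbp1 was higher by 0.45 ± 0.05 (adjusted p = 2.64e-05), Atf6 by 0.31, Hspa5 by 0.28 and Calr by 0.22. The lower members were Cbs (-0.61) and Psat1 (-0.18), of which Psat1 lost its call in all 6 fits without 1 library and Cbs in 2 of them. In run 2 alone the counts were 8 and 0 in the amino acid and ATF4 arm and 6 and 0 in the ER arm, with 9.37% of all genes called.

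The difference between the lines was tested itself, as the SWNT/CpG response in RAW-Blue minus that in K-Luc. In the amino acid and ATF4 arm it was higher for 16 and lower for 1 of 22 members (median 0.80), and in the ER arm it was higher for 1 and lower for 9 of 18 (median -0.29), with 25.4% of all genes called (14.4% higher and 11.1% lower). Cth had the largest difference (3.99 ± 0.29, adjusted p = 7.3e-09), followed by Chac1 (1.54), Atf5 (1.37), Trib3 (1.37), Psph (1.31) and Asns (1.29). The difference was 0.81 ± 0.11 for Atf4 and 0.94 ± 0.17 for Ddit3. Among ER members it was -1.10 ± 0.11 for Xbp1 (adjusted p = 1.07e-07), -0.75 ± 0.12 for Calr, -0.53 ± 0.09 for Syvn1 and -0.48 ± 0.15 for Sdf2l1, and 0.57 ± 0.15 for Ern1. Hspa5 differed by -0.037 ± 0.10 (adjusted p = 0.87). The counts were 17 and 0, and 2 and 5, without RAW-Blue untreated 1, and 16 and 1, and 2 and 12, without untreated 2, with 28.2% and 35.9% of all genes called. As the lines were treated for different times, the line and the time cannot be told apart in these differences.

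**Figure D5:**
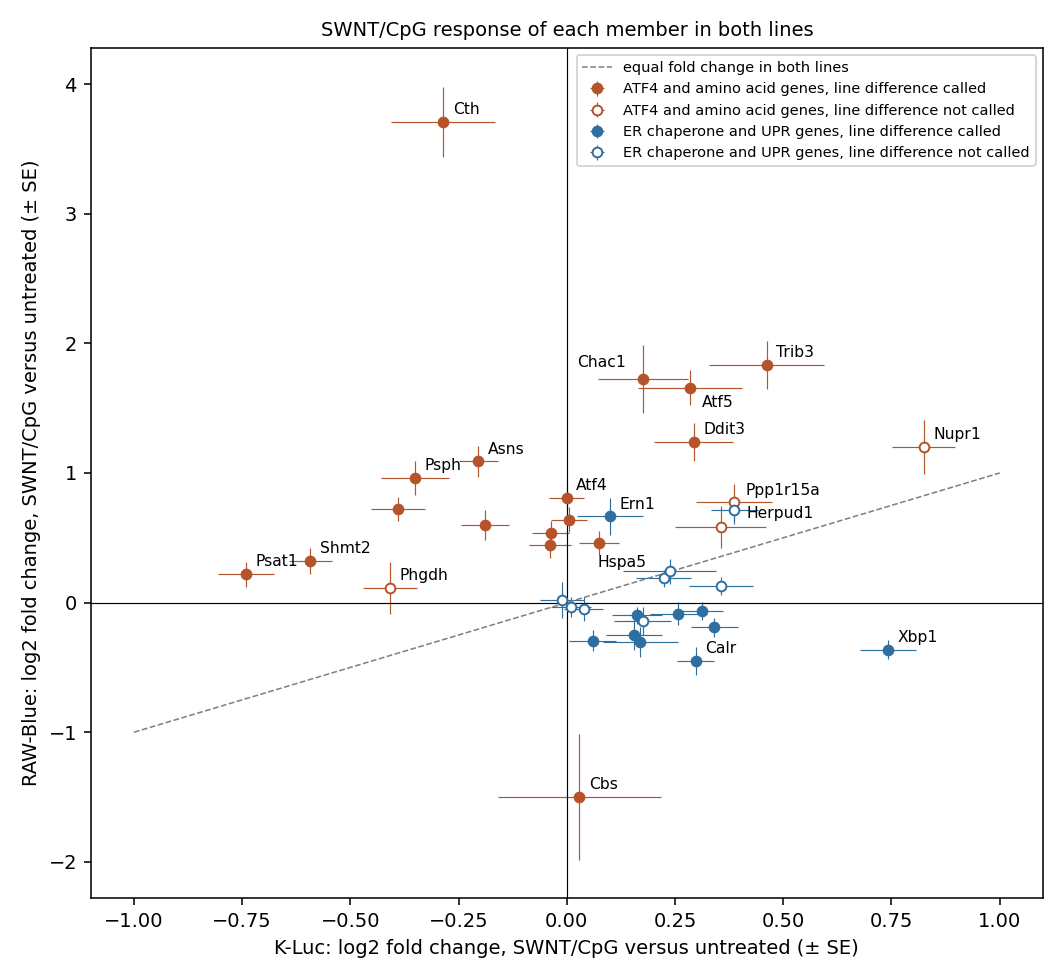
Log2 fold change of each member with SWNT/CpG in K-Luc (x axis) and in RAW-Blue (y axis), with bars of 1 SE and filled points where the difference between lines was called. Most members of the amino acid and ATF4 arm lie above the diagonal, with Cth at 3.71 in RAW-Blue, and Xbp1 lies below it, at 0.74 in K-Luc and -0.36 in RAW-Blue.

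Member by member, 6 rose with SWNT/CpG in both lines, which share no controls: Ddit3, Trib3, Nupr1, Sesn2, Ppp1r15a and Herpud1, where 3.54% of the 10576 genes tested in both lines did so. The K-Luc calls of Ddit3 and Trib3 were lost in fits without 1 library, as given above. Xbp1 and Calr rose in K-Luc and fell in RAW-Blue, as did 2.72% of those genes. Their falls in RAW-Blue each missed the threshold in at least 1 fit without a library. Asns, Psph, Shmt2, Mthfd2 and Slc7a5 fell in K-Luc and rose in RAW-Blue, as did 1.93%. Asns kept its call in both lines in every fit without 1 library. The RAW-Blue calls of Nupr1, Sesn2, Ppp1r15a, Psph, Shmt2, Mthfd2 and Slc7a5 were not followed through all of those fits. Nor were the K-Luc calls of Sesn2, Calr, Psph and Slc7a5. With free CpG, Herpud1 rose in both lines (0.681% of the genes did), and Xbp1 again rose in K-Luc and fell in RAW-Blue (1.99%). Atf4, Asns, Mthfd2 and Cth fell in K-Luc and rose in RAW-Blue (1.29%). In each line the CpG calls of Herpud1 and Xbp1 were lost in at least 1 fit without a library. So were the RAW-Blue calls of Atf4, Asns and Cth, and that of Mthfd2 was not followed through all of those fits. The difference in the CpG response, a comparison added after values were seen, was higher in RAW-Blue for 14 and lower for 1 of 22 members of the amino acid and ATF4 arm (median 0.63) and higher for 3 and lower for 1 of 18 ER members (median 0.0738), with 21.9% of all genes called (11.3% higher and 10.6% lower). It was 2.75 ± 0.31 for Cth, 0.86 ± 0.13 for Asns, 0.63 ± 0.11 for Atf4 and -0.66 ± 0.11 for Xbp1.

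Other genes of the pathways, which are not members, were counted from lists of 39 further ATF4-linked genes and 40 further ER genes. In RAW-Blue with SWNT/CpG, 25 of 37 tested ATF4-linked genes rose and 2 fell (median 0.42), led by the mitochondrial folate enzyme Aldh1l2 (48.62 ± 11.8 to 190.9 ± 27.8 CPM, SD, n = 2 each; 1.97), the cystine transporter Slc7a11 (49.65 ± 14.1 to 189.5 ± 37.1 CPM; 1.93) and the neutral amino acid transporter Slc1a4 (1.14). That is 73% of the list called, where 23.2% of all genes were. Of 39 further ER genes, 4 rose and 5 fell (23.1%, at the background), among them the oxidase Ero1l (0.86), the transcription factor Creb3l2 (-0.44) and the disulfide isomerase P4hb (-0.36). In K-Luc with SWNT/CpG, 10 of 37 ATF4-linked genes rose and 6 fell, which at 43.2% of the list is the 43.1% of all genes called, with Atf3 at 0.89, the kinase PERK (Eif2ak3) at 0.53 and the secreted glycoprotein Stc2 at -0.49. Of 39 further ER genes there, 21 rose and 0 fell (53.8%, where 21.8% of all genes rose), led by Creb3l2 (0.60), the lectin Os9 (0.56) and the disulfide isomerase Pdia5 (0.54).

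With free CpG, 6 of 37 further ATF4-linked genes rose and 1 fell in RAW-Blue (18.9%, where 10.8% of all genes were called), led by the transcription factor Jdp2 (1.11), Slc7a11 (1.04) and the asparaginyl-tRNA synthetase Nars (0.52), while 1 rose and 16 fell in K-Luc (45.9%, against 36.2%), with Stc2 at -0.49, Eif2s1, which encodes eIF2α, at -0.45 and Slc7a11 at -0.42. Slc7a11 was thus called in both lines, in opposite directions. Of the further ER genes, 2 of 39 rose and 0 fell in RAW-Blue (Ssr3 of the translocon and Sec11c of the signal peptidase), and 11 rose and 2 fell in K-Luc, led by Os9 (0.51). These are 5.13% and 33.3% of the list, both under the share of all genes called. The difference in the SWNT/CpG response between the lines was higher in RAW-Blue for 26 and lower for 3 of 38 ATF4-linked genes, and higher for 1 and lower for 12 of 39 ER genes (76.3% and 33.3% of the lists, against 25.4% of all genes), with Slc7a11 at 1.87 and Creb3l2 at -1.04.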

How the data were processed

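Poly(A) RNA of 24 samples was sequenced, per the labels' protocols, from a stranded kit. Reads were aligned with TopHat2 2.0.14 and counted with HTSeq 0.6.0 on mm9, per the submitters' processing notes; which annotation and which strand setting served are details the sources do not give. Raw read counts per gene were deposited, beside the authors' RPKM values. RPKM was used only for levels between genes or lines. For the tests, the deposited counts went into edgeR 4.0.16 under R 4.3.3 (TMM, filterByExpr with a minimum count of 10 and a minimum total of 15, robust quasi-likelihood F test, Benjamini-Hochberg adjustment over all genes tested, threshold 0.05). K-Luc was fitted by group and run, RAW-Blue by group, and both lines together for the differences between them. The SE is the log2 fold change divided by the square root of F. DESeq2 1.42.0, other scalings, no filter, the compared groups alone, run 2 alone, the replicate block and leaving out each library of the compared groups were alternatives. Libraries of the other groups were not left out. Members, lists and tests were chosen with earlier results of these data known. Named members are, per comparison and arm, up to 4 called in each direction with the largest fold change, provided that the groups do not overlap and the average log2 CPM reaches 1. Atf4, Ddit3, Asns, Xbp1 and Hspa5 are also given, called or not, in some comparisons but not in all. Up to 3 called genes are named per further list. Some other members are given as values, whereas Pdia4, Canx and Creld2 are named without a level or fold change. The tests were checked on simulated data, where false calls in the RAW-Blue design, with 2 libraries a group, ran somewhat above the nominal rate.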

Additional observations from a re-analysis of the deposited data

Results flagged for a closer look

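Several members responded differently in the 2 lines, by a test of the difference itself (RAW-Blue minus K-Luc, log2, edgeR adjusted p). For SWNT/CpG the differences were 0.8059 for Atf4 (adjusted p = 5.17e-06), 1.372 for Atf5 (2.96e-05), 0.9401 for Ddit3 (0.000286), 1.371 for Trib3 (0.000302), 1.289 for Asns (1.16e-07), 1.545 for Chac1 (0.000192) and 3.992 for Cth (7.3e-09). In the ER arm they were -1.104 for Xbp1 (1.07e-07), -0.4768 for Sdf2l1 (0.0209), -0.7499 for Calr (4.25e-05), 0.5675 for Ern1 (0.00615) and -0.5329 for Syvn1 (0.000135). All but that of Sdf2l1 (adjusted p up to 0.126) passed the threshold in every fit without 1 library.

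For free CpG, a comparison added after values were seen, the differences were 0.6301 for Atf4 (0.000244), 0.6218 for Ddit3 (0.0153), 0.8608 for Asns (6.81e-05), 1.165 for Chac1 (0.00509), 0.8778 for Mthfd2 (1.97e-05), 2.745 for Cth (4.88e-06), -0.6609 for Xbp1 (0.000192), 0.3364 for Hspa5 (0.021), 0.403 for Hsp90b1 (0.0347) and 0.4006 for Herpud1 (0.0235). Those of Ddit3, Hspa5, Hsp90b1 and Herpud1 lost the threshold in at least 1 fit without a library. The lines differ in treatment time as well, and its part was not tested.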

How the results depend on the processing

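Of 1931 values under the alternatives, 1741 kept their side of the threshold, 171 lost a call and 19 gained one. Among values called in either fit, 0 reversed direction. A change of sign between uncalled values was not counted. No scaling moved the median of all genes by more than 0.0735 on the log2 scale. Counts of called members are given below as totals over both arms.

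Leaving out 1 library in turn, K-Luc counts ranged from 11 to 19 for CpG (19 with all libraries), 0 to 0 for SWNT/LP, 11 to 19 for CpG+SWNT/LP (19), 14 to 21 for SWNT/CpG (22), each lowest without untreated 2, and 14 to 19 for SWNT/CpG against CpG+SWNT/LP (23), lowest without SWNT/CpG 3. RAW-Blue counts ranged from 2 (without CpG 2) to 22 (without untreated 1) for CpG (10), 0 to 14 (without untreated 2) for SWNT/LP (0), 6 (without CpG+SWNT/LP 2) to 25 (without untreated 1) for CpG+SWNT/LP (16), 14 (without SWNT/CpG 1) to 32 (without untreated 2) for SWNT/CpG (24), 0 to 0 for SWNT/CpG against CpG+SWNT/LP (2) and 0 to 2 against CpG (3). Between lines they ranged from 20 to 31 for the SWNT/CpG response (27), 13 to 23 for the CpG response (19) and 30 to 37 for untreated cells (34). Where 1 library remained in a group, it was assumed to vary like the other groups. The number of all genes called also changed between these fits, so a change in these counts is not a result about the members.

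Fitting only the compared groups gave 10 calls for CpG in K-Luc, with 2543 of 12189 genes called. In RAW-Blue it gave 1 for CpG (125 of 11198 genes), 5 for CpG+SWNT/LP (443 of 11236) and 13 for SWNT/CpG (899 of 11276). SWNT/CpG had 20 against CpG+SWNT/LP (832 of 11309) and 23 against CpG (923 of 11250) there. Between lines it gave 19 for untreated cells (6541 of 12622) and 7 for the CpG response (571 of 13000). Run 2 alone gave 9 calls for CpG+SWNT/LP and 14 for SWNT/CpG against CpG+SWNT/LP in K-Luc, and 12 for the CpG response. In each of these run 2 fits the share of all genes called fell too, so the lower counts are not a result about the members. DESeq2 gave 1 for SWNT/LP (151 of 11514 genes called), 6 for SWNT/CpG against CpG+SWNT/LP (247) and 9 against CpG (251) in RAW-Blue. The count against CpG was 8 without the filter (240 of 16323). The cause of these shifts was not tested.

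Deviations of same-numbered libraries correlated above 0.1 in 20 of 26 K-Luc pairs (median r 0.20, against -0.094 and 6 of 52 for different numbers) and in 4 of 20 RAW-Blue pairs (median r 0.023). As not every pair passed 0.1, and no label ties the numbers to a shared source, they were not taken as pairs. Still, 13 of 14 K-Luc and 10 of 10 RAW-Blue libraries correlated best with their own number, a hint from the data and not the design. In RAW-Blue, with 2 libraries a group, the deviations of replicates 1 and 2 mirror each other, so these 10 are not separate. With the replicate block, K-Luc counts were 24 for CpG (5134 of 12420 genes called), 27 for CpG+SWNT/LP (5786) and 28 for SWNT/CpG (6536). For SWNT/CpG against CpG+SWNT/LP the K-Luc count was 34 (4009). In RAW-Blue the block gave 9 for CpG (1159 of 11514 genes called), 0 for SWNT/LP (54), 16 for CpG+SWNT/LP (2204) and 22 for SWNT/CpG (2548). SWNT/CpG had 1 against CpG+SWNT/LP (115) and 2 against CpG (107) there. Across lines the block gave 29 for the SWNT/CpG difference (3830 of 13350), 20 for CpG (2819) and 32 for untreated cells (9418). Depth limits Cbs and Vldlr in RAW-Blue, with at most 24 reads a library.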
